A study of Mus musculus with 8 samples.

Results

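Genes of mitosis and of the G2/M transition were followed in activated mouse CD4 T cells that were wild type (WT) or lacked IFN-γ receptor 1 (KO). The list holds 45 gene symbols, chosen by name: cyclin-dependent kinase 1 and its partners, mitotic kinases, the spindle checkpoint, chromosome separation, the chromosomal passenger complex, kinetochore, spindle motors, cytokinesis, chromosome structure and the transcription factor Foxm1. Of these, 44 had a probe set annotated to that symbol alone, among 18193 genes on the array, and 43 were among the 12091 genes tested. Ccnb1, which encodes cyclin B1, had no such probe set and is not analysed here. Cdc25c, a phosphatase that activates Cdk1, was above the array median on 0 of 8 arrays, with signals of 5.16 to 60.5, and was not tested.

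CD4 T cells from spleens of 8-week-old mice had been isolated by autoMACS and stimulated with antibodies to CD3 and CD28 for 15 h. Vehicle or db-cAMP (dibutyryl cyclic AMP, a cell-permeable activator of protein kinase A) was present for the final 3 h. Each genotype was studied under each treatment, which made 4 groups of 2 arrays, and cells of every group had been stimulated through CD3 and CD28. The labels give neither the construction of the IFN-gR1 deletion nor the mouse strain or any pooling of animals. The titles call the arrays biological replicates but no label ties them to separate mice, so the spread behind each p-value is that between these arrays and may be technical. The free-text descriptions of the 4 KO arrays name WT cells, and their titles, source names and genotype entries, which name KO cells, were followed.

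A dividing cell copies its DNA in S phase, passes through G2 and enters mitosis when Cdk1, bound to cyclin A or cyclin B, is switched on by Cdc25 phosphatases. Chromosomes are then attached to the spindle at kinetochores, a checkpoint holds the cell until all are attached, and the anaphase-promoting complex marks securin and cyclin B for destruction so that chromosomes part. Most of these genes are transcribed late in the cycle, under the MuvB complex with B-Myb and Foxm1, and are repressed in resting cells by the DREAM complex. Resting T cells lie outside the cycle and enter it after stimulation through the T cell receptor and CD28.

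Mitotic transcripts were lower in KO than in WT cells, with and without db-cAMP, whereas 3 h of db-cAMP moved few of them. Among the 43 genes tested, 9 were lower in KO cells under vehicle and 1 was higher, a share of 23.3% against 10.8% of all genes tested. Under db-cAMP 21 were lower and 0 higher, 48.8% against 29.2% of all genes in either direction and 13.3% in the lower direction. The lower direction under vehicle took 20.9% of the mitotic genes and 5.78% of all genes, and the higher direction 2.33% and 5.06%. The median log2 difference of the 43 genes was -0.70 under vehicle and -0.79 under db-cAMP, beside -0.01 and -0.00 for all genes tested. A gene was called when its Benjamini-Hochberg adjusted p, from limma over all 12091 genes, was under 0.05. Log2 differences are on the scale of log2(signal + 5.48), with the standard error (SE) after each. This scale understates the change of dim genes, and 23 of the 43 had a mean signal under 200. Prc1, Anln and Cenpf were above the array median on WT arrays only. They entered the test through the genotype where they were higher, and their lower KO values are not independent of that filter.

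On each array, the mean log2 level of the 43 genes was 8.17 and 8.23 for WT vehicle, 8.27 and 8.33 for WT db-cAMP, 7.49 and 7.44 for KO vehicle and 7.51 and 7.46 for KO db-cAMP. All 4 KO arrays thus lay below all 4 WT arrays, while the mean over all tested genes ran from 8.78 to 8.85. Gene by gene, 26 of the 43 (60.5%) had every KO array below every WT array, against 8.12% of all genes tested. Passing the test under both treatments was seen for 7 genes (16.3%, against 3.71% of all genes), which were Cdk1, Ccna2, Mad2l1, Ube2c, Birc5, Cenpa and Top2a. Within treatments, 37 genes had both KO arrays below both WT arrays under vehicle (26.6% of all genes did) and 2 had both above (24.3%). Under db-cAMP these counts were 36 (32%) and 3 (32.1%). The fitted difference was below 0 for 41 genes under vehicle (50.7% of all genes) and for 40 under db-cAMP (50.4%). In these bulk samples fewer cells in G2 and mitosis and less RNA per cell cannot be told apart.

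**Figure D1:**
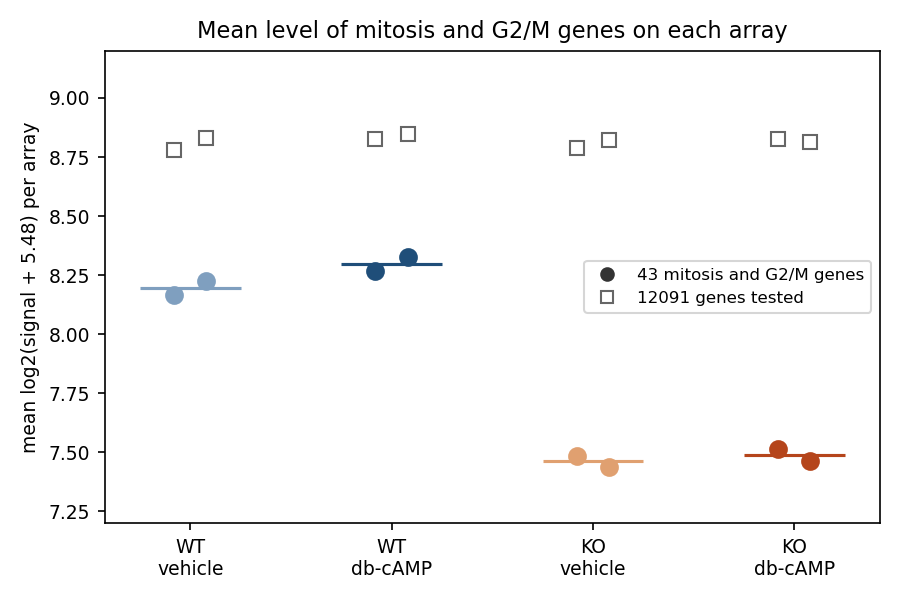
Mean log2(signal + 5.48) on each array (vertical axis, 1 point per array) for the 43 mitosis and G2/M genes tested (circles, with the group mean as a line) and for the 12091 genes tested (open squares). The 4 KO arrays sit between 7.44 and 7.51 and the 4 WT arrays between 8.17 and 8.33, while the squares stay between 8.78 and 8.85.

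Several measures unrelated to mitosis differed between the same 2 sets of 4 arrays, and their part in the result was not tested. The poly-A spike-in controls, bacterial transcripts added to the RNA before labelling, had geometric mean signals of 830 to 1221 on WT and 2476 to 3496 on KO arrays. The hybridisation controls gave 8197 to 11721 on WT and 5856 to 6592 on KO arrays. The 3-prime to 5-prime ratio of Gapdh was 0.734 to 0.769 on WT and 0.779 to 0.850 on KO arrays, and that of Actb separated the genotypes the other way, at 1.46 to 1.72 and 1.34 to 1.44. Among other cell types, the summed signal of 7 B cell markers was 631 to 895 on WT and 442 to 519 on KO arrays, with Cd79a at 7.57 to 54.7 over all arrays and no marker at 0. Of 6 B cell markers tested, 0 passed between genotypes under vehicle. Under db-cAMP 2 were lower in KO cells, Cd79b (-1.28) and Ms4a1 (-0.76), where 13.3% of all genes were lower. Cd79b gave 131 to 194 on WT and 44.3 to 114 on KO arrays. The summed signal of 2 CD8 T cell markers was 367 to 516 and 270 to 335. Cd8b1 passed as lower in KO cells under vehicle (-0.92) and under db-cAMP (-0.89), and Cd8a passed in neither. The T cell sum was 76741 to 78571 and 68972 to 78026, with Cd3d at 19991 to 29408 and Cd4 at 253 to 539. Of 7 T cell markers tested, 3 were lower and 1 higher in KO cells under vehicle, against 5.78% and 5.06% of all genes. Under db-cAMP 2 were lower and 3 higher, against 13.3% and 15.9%. Cd3d (-0.39 and -0.48) and Cd2 (-0.38 and -0.40) were lower under both treatments, and Cd28 (0.30 and 0.34) was higher. The sums of the 5 remaining marker lists overlapped. Ifngr1, the deleted gene, gave 905 and 873 for WT vehicle, 7319 and 8201 for WT db-cAMP, 439 and 378 for KO vehicle and 1056 and 1272 for KO db-cAMP. It was lower on the KO arrays of each treatment, and where its probes lie relative to the deletion is not given.

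Late cell cycle promoters often carry a CHR (cell cycle genes homology region), the element read by MuvB complexes, next to CCAAT boxes bound by NF-Y. The windows of 5 genes that were lower in KO cells are shown here because they display both kinds of promoter, with and without these letters. Each runs from 120 bases before to 30 bases after the RefSeq start (GRCm38.p6). Capitals mark CHR matches (TTTGAA or TTCGAA, or TTCAAA on the other strand) and CCAAT boxes (CCAAT, or ATTGG on the other strand). Of the 5, Cenpa met the rule for printing and the other 4 were chosen after their values were seen. Cdk1 lies at chr10:69352883-69353032 on the minus strand, Ube2c at chr2:164769809-164769958 on the plus strand, Top2a at chr11:99024160-99024309 on the minus strand, Cenpa at chr5:30666766-30666915 and Birc5 at chr11:117849117-117849266, both on the plus strand.
Cdk1: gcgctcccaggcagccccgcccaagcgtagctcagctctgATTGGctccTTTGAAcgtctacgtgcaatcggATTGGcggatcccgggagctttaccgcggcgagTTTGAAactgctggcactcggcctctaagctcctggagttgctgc
Ube2c: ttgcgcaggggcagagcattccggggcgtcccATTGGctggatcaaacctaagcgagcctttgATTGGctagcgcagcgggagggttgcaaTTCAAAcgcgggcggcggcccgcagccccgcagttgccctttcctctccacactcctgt
Top2a: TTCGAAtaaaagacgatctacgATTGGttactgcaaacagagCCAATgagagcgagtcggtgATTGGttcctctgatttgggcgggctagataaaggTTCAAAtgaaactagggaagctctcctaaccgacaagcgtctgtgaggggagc
Cenpa: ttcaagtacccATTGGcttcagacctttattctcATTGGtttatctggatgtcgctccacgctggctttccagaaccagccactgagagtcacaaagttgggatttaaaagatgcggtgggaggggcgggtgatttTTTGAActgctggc
Birc5: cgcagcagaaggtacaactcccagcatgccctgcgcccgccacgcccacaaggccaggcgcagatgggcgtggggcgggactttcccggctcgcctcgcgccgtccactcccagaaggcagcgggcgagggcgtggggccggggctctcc
Cdk1, Ube2c, Top2a and Cenpa hold both elements, and the Birc5 window holds neither set of letters. The window of Mad2l1, also lower in KO cells under both treatments and not shown, likewise holds neither.

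A promoter was found in the RefSeq table for 37 of the 43 genes, and windows of 300 bases (250 before to 50 after the start) were searched on both strands. A CHR match was present for 28 of 37 genes (75.7%) and for 21.7% of 27025 genes with a promoter. CCAAT was likewise found for 28 of 37 (75.7%), against 41.1% of all genes. Both stood in the same promoter for 25 of 37 genes (67.6%), against 8.61% of all genes. The 28 genes with a CHR match had a median difference between KO and WT of -0.64 under vehicle and -0.71 under db-cAMP. For the 9 without a match it was -0.73 and -0.98, so the genotype difference was seen in both sets.

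**Figure D2:**
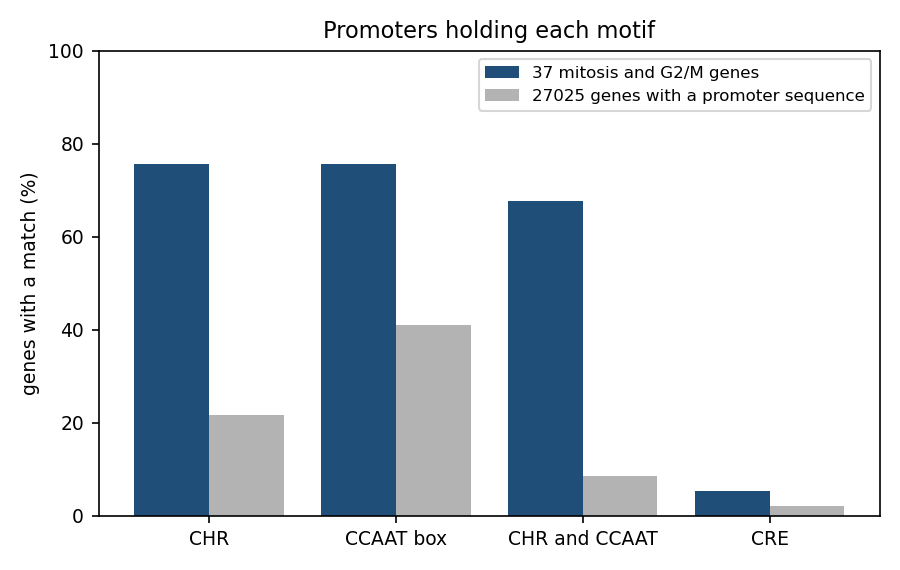
Share of genes (vertical axis, percent) whose promoter window of 300 bases holds a CHR, a CCAAT box, both in the same window, or a full cAMP response element (CRE), for the 37 mitosis and G2/M genes with a promoter sequence (blue) and for all 27025 genes with one (grey). The blue bars stand at 75.7, 75.7, 67.6 and 5.41%, and the grey bars at 21.7, 41.1, 8.61 and 2.03%.

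Cdk1, the kinase that drives entry into mitosis, and its early partner Ccna2 (cyclin A2) were lower in KO cells under both treatments. Cdk1 gave signals of 583 and 527 on the WT vehicle arrays, 304 and 470 with db-cAMP, 281 and 210 on the KO arrays with vehicle and 128 and 197 with db-cAMP. The lowest WT array stood above the highest KO array. The difference was -1.17 ± 0.25 under vehicle (2.25-fold lower, adjusted p = 0.00974) and -1.22 ± 0.25 under db-cAMP (2.33-fold lower, adjusted p = 0.00243). Ccna2 gave 392 and 395 on WT arrays under vehicle, 394 and 418 with db-cAMP, 197 and 170 in KO cells with vehicle and 240 and 155 with db-cAMP. The genotypes did not overlap, and Ccna2 was lower by 2.12-fold under vehicle (adjusted p = 0.00666) and 2.07-fold under db-cAMP (adjusted p = 0.00261). A second Ccna2 probe set differed by -1.52 and -1.10.

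The other partners of Cdk1 behaved less alike. Cks2, a small subunit that binds the kinase, was among the brightest of the list, at 7143 to 9654 on all arrays, with differences of 0.20 (adjusted p = 0.144) and -0.06 (adjusted p = 0.651). A second Cks2 probe set passed as lower in KO cells under db-cAMP (-0.29, adjusted p = 0.047 over all probe sets). Ccnb2, which encodes cyclin B2, was dim at 51.7 to 142 and differed by -0.61 (95% interval -1.57 to 0.35) under vehicle. Cdc25b, a phosphatase that activates Cdk1, gave 204 and 186 on WT arrays under vehicle, 461 and 258 with db-cAMP, 171 and 162 in KO cells with vehicle and 221 and 175 with db-cAMP. Its groups did not overlap between genotypes within either treatment, and the call was made under db-cAMP (-0.79 ± 0.27, adjusted p = 0.042).

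**Figure D3:**
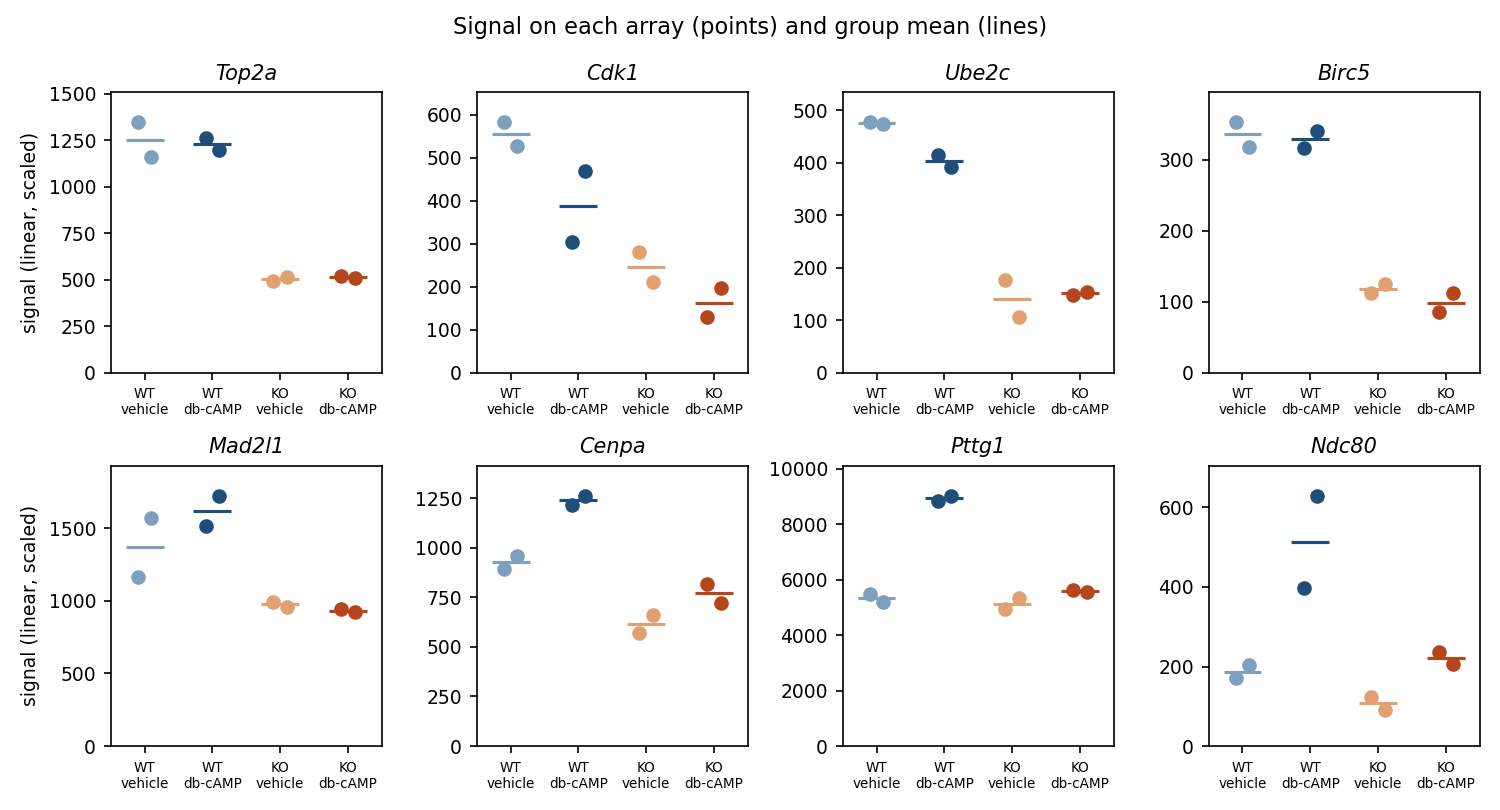
Linear signal (vertical axis, from 0) on each of 2 arrays per group (points) with the group mean (line) for 8 genes. Top2a, Cdk1, Ube2c, Birc5, Mad2l1 and Cenpa are lower on every KO array than on the WT arrays of the same treatment; Pttg1 stands apart in WT cells with db-cAMP at 8859 and 9037, and Ndc80 is higher with db-cAMP in both genotypes.

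None of the 6 mitotic kinases passed the test between genotypes under vehicle, and Nek2 and Melk passed under db-cAMP. Plk1, the polo-like kinase that acts from mitotic entry to cytokinesis, gave 140 and 205 on WT arrays under vehicle, 166 and 204 with db-cAMP, 107 and 80.6 in KO cells with vehicle and 99.8 and 93.5 with db-cAMP. All KO arrays lay below all WT arrays, with differences of -0.83 (adjusted p = 0.131) and -0.89 (adjusted p = 0.0526). Aurkb, the enzyme of the chromosomal passenger complex, gave 135 and 134, then 157 and 79.3 in WT cells, and 41.6 and 86.4, then 97.3 and 39.4 in KO cells, vehicle first. Its replicates spread widely, and the differences of -1.09 (95% interval -2.21 to 0.02) and -0.79 (-1.90 to 0.33) did not pass. Nek2, a centrosome kinase, gave 83.4 and 187, then 130.5 and 118 in WT cells, and 51.0 and 72.5, then 28.7 and 46.3 in KO cells. The genotypes did not overlap, and Nek2 was 3.07-fold lower in KO cells under db-cAMP (adjusted p = 0.0227). A second Nek2 probe set differed by 0.26 under vehicle and -1.08 under db-cAMP and did not pass. An alternative without probe sets ending in _s_at or _x_at gave Nek2 an adjusted p of 0.227 under db-cAMP. Melk, a kinase that marks proliferating cells, was 1.96-fold lower there (adjusted p = 0.0309). Aurka and Ttk differed by -0.22 and -0.13 under vehicle and by -0.28 and -0.77 under db-cAMP, and did not pass.

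In the spindle checkpoint, which halts cells with unattached chromosomes, Mad2l1 was lower in KO cells under both treatments. Mad2l1, which inhibits Cdc20 when kinetochores are free, gave 1167 and 1570 on WT arrays under vehicle, 1517 and 1724 with db-cAMP, 993 and 958 in KO cells with vehicle and 942 and 922 with db-cAMP. The KO arrays lay within a narrow range below every WT array. It was lower by 1.39-fold under vehicle (adjusted p = 0.0343) and 1.73-fold under db-cAMP (adjusted p = 0.000432). Bub1, a checkpoint kinase, was 1.83-fold lower under vehicle without passing (adjusted p = 0.0858) and 2.13-fold lower under db-cAMP (adjusted p = 0.0136). Averaging Bub1 over its probe sets gave an adjusted p of 0.80 under db-cAMP. Bub1b, which encodes the checkpoint protein BubR1, gave 205 and 255, then 170 and 187 in WT cells, and 140 and 161, then 154 and 143 in KO cells. Every KO array lay below every WT array, yet the differences of -0.58 (adjusted p = 0.176) and -0.26 (adjusted p = 0.497) did not pass. Bub3, which brings Bub1 to kinetochores, was higher in KO cells under vehicle by 0.25 ± 0.07 (adjusted p = 0.0476), at 7223 and 7976 against 6570 and 6237. That call was lost when any 1 of the 8 arrays was left out, and an alternative without probe sets ending in _s_at or _x_at gave an adjusted p of 0.841.

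Of the genes that act when chromosomes separate, Ube2c was the most reduced under vehicle among the genes that passed. Ube2c encodes the ubiquitin-conjugating enzyme of the anaphase-promoting complex. Its signals were 478 and 473 on WT arrays under vehicle, 415 and 393 with db-cAMP, 176 and 105 in KO cells with vehicle and 148 and 154 with db-cAMP. The highest KO array stood well below the lowest WT array, and Ube2c was lower by 3.39-fold (-1.76 ± 0.24, adjusted p = 0.000364) and 2.61-fold (-1.38 ± 0.24, adjusted p = 0.000574). Cdc20, the activator of the same complex, gave 1327 and 1266, then 1122 and 1214 in WT cells, and 1242 and 1147, then 870 and 1034 in KO cells. Cdc20 differed by -0.12 under vehicle (adjusted p = 0.599) and -0.30 under db-cAMP (adjusted p = 0.061). Espl1, which encodes separase, did not pass at -0.41 and -0.61, on signals of 36.0 to 95.6.

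The chromosomal passenger complex corrects faulty attachments and later directs cytokinesis, and its 3 subunits other than the kinase Aurkb were lower on all KO than on all WT arrays. Birc5, which encodes survivin, gave 353 and 318 on WT arrays under vehicle, 317 and 341 with db-cAMP, 112 and 124 in KO cells with vehicle and 84.7 and 112 with db-cAMP. It was lower by 2.76-fold under vehicle (-1.46 ± 0.24, adjusted p = 0.00161) and 3.25-fold under db-cAMP (-1.70 ± 0.24, adjusted p = 0.00013). Incenp, the scaffold of the complex, was 1.29-fold lower under vehicle (adjusted p = 0.0442), with signals of 1484 and 1521 in WT and 1095 and 1243 in KO cells. A dimmer Incenp probe set differed by 0.25 in the other direction under vehicle without passing. Cdca8, which encodes borealin, was 1.34-fold lower under db-cAMP (adjusted p = 0.0406), and a second Cdca8 probe set passed as lower under vehicle (-0.91, adjusted p = 0.0219 over all probe sets).

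Among kinetochore and centromere genes, Cenpa was lower in KO cells under both treatments, and the other 5 had fitted differences below 0 in both. Cenpa, the histone H3 variant of centromeres, gave 895 and 960 on WT arrays under vehicle, 1215 and 1263 with db-cAMP, 572 and 659 in KO cells with vehicle and 817 and 723 with db-cAMP. It was 1.5-fold lower under vehicle (adjusted p = 0.0061) and 1.61-fold lower under db-cAMP (adjusted p = 0.000639), while a dimmer probe set, at 58.6 to 163, differed by -0.23 and 0.50. Spc25, a subunit of the NDC80 complex that grips microtubules, gave 335 and 321, then 289 and 280 in WT cells, and 215 and 192, then 196 and 197 in KO cells. All KO arrays were below all WT arrays, with a call under vehicle (-0.68 ± 0.19, adjusted p = 0.0403) and -0.52 (adjusted p = 0.0607) under db-cAMP. Ndc80 and Nuf2, of the same complex, were 2.24-fold and 2.12-fold lower in KO cells under db-cAMP (adjusted p = 0.00445 and 0.0208). Cenpe and Cenpf, large proteins of the outer kinetochore, were dim, at 48.8 to 143 and 17.4 to 97.9, and did not pass.

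All 6 spindle motor and microtubule genes were fitted lower in KO cells under vehicle, with differences from -1.25 (Tpx2) to -0.56 (Hmmr), and 0 of them passed. Under db-cAMP, 3 were called lower. Nusap1, which bundles spindle microtubules, had the largest fitted difference of the list under db-cAMP, with signals of 163 and 249, then 267 and 300 in WT cells, and 58.1 and 125, then 82.6 and 22.9 in KO cells. The genotypes did not overlap, but the KO arrays of each treatment lay far apart, and the difference under db-cAMP was -2.53 ± 0.50 (5.77-fold lower, adjusted p = 0.00162). It was -3.34 without KO db-cAMP replicate 1 and -1.71 without KO db-cAMP replicate 2. Kif2c, a motor that depolymerises microtubules, gave 171 and 170, then 150 and 133 in WT cells, and 77.9 and 82.6, then 88.0 and 34.1 in KO cells. It was 2.41-fold lower under db-cAMP (adjusted p = 0.035), and omitting a treated KO array moved -1.27 to -1.89 (replicate 1) or -0.65 (replicate 2). Of its 3 other probe sets, 2 differed in the other direction under db-cAMP, by 1.63 and 0.37, without passing. The one at 0.37 gave 9.56 and 109, then 156 and 92.8 on WT arrays, and 142 and 139, then 148 and 167 on KO arrays. Like the probe set used, it was dim, under 200 on every array. Tpx2, which activates Aurora A on the spindle, was 2.16-fold lower there (adjusted p = 0.0434). Kif11, Kif4 and Hmmr differed by -0.73, -0.25 and -0.59 and did not pass.

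Cytokinesis genes, which build and close the furrow between daughter cells, had 0 of 6 called under vehicle, where all 6 were fitted lower in KO cells, and 3 called lower under db-cAMP; 0 of 6 passed the test of the difference between treatments. Prc1, which bundles the microtubules of the central spindle, gave 69.1 and 91.9, then 177 and 161 in WT cells, and 43.2 and 42.7, then 46.2 and 33.3 in KO cells. Only the WT arrays with db-cAMP exceeded 100, and Prc1 was 3.90-fold lower in KO cells under db-cAMP (-1.96 ± 0.45, adjusted p = 0.005). Prc1 was above the array median on 4 arrays, all of them WT, so it passed the filter only through the genotype where it was higher. An alternative without probe sets ending in _s_at or _x_at gave Prc1 an adjusted p of 0.291 under db-cAMP. Kif20a, a motor of the central spindle, gave 155 and 143, then 116 and 149 in WT cells, and 69.97 and 43.8, then 45.5 and 35.6 in KO cells. It was 2.99-fold lower under db-cAMP (adjusted p = 0.0118), without overlap between genotypes. Kif23, which forms the centralspindlin complex with Racgap1, was 2.21-fold lower (adjusted p = 0.0471). Anln, Ect2 and Racgap1 differed by -0.09, 0.33 and -0.48 under db-cAMP and by -1.79, -0.56 and -0.44 under vehicle, and passed in neither.

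Top2a, the topoisomerase that untangles chromosomes in G2 and mitosis, gave the smallest adjusted p values of the list between genotypes. Its signals were 1348 and 1160 on WT arrays under vehicle, 1263 and 1199 with db-cAMP, 495 and 512 in KO cells with vehicle and 519 and 510 with db-cAMP. The KO arrays were nearly equal to each other and all below the WT arrays, with differences of -1.30 ± 0.12 (2.47-fold lower, adjusted p = 9.7e-06) and -1.25 ± 0.12 (2.38-fold lower, adjusted p = 3.6e-06). Averaging Top2a with its dimmer probe sets gave -0.53 under vehicle (adjusted p = 0.493), and an adjusted p of 0.111 under db-cAMP. Mki67, the Ki-67 proliferation marker, gave 304 and 235, then 340 and 300 in WT cells, and 185 and 43.9, then 118 and 142 in KO cells. No KO array reached the lowest WT array, yet the spread among KO arrays with vehicle was wide, and -1.49 (adjusted p = 0.054) and -1.26 (adjusted p = 0.0534) did not pass. Foxm1, the transcription factor that switches on many genes of the list, gave 86.0 and 122, then 56.9 and 60.6 in WT cells, and 79.3 and 116, then 113 and 118 in KO cells. Foxm1 stood lowest in WT cells with db-cAMP, and its differences of -0.09 (adjusted p = 0.938) and 0.92 (adjusted p = 0.102) did not pass. A dimmer Foxm1 probe set gave 71.2 and 69.1, then 6.59 and 16.9 in WT cells, and 62.4 and 64.3, then 78.2 and 90.6 in KO cells. Its WT db-cAMP arrays stood far below the other 6, and it passed as higher in KO cells under db-cAMP, by 2.45 (adjusted p = 0.00831 over all probe sets), against the direction of the list.

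**Figure D4:**
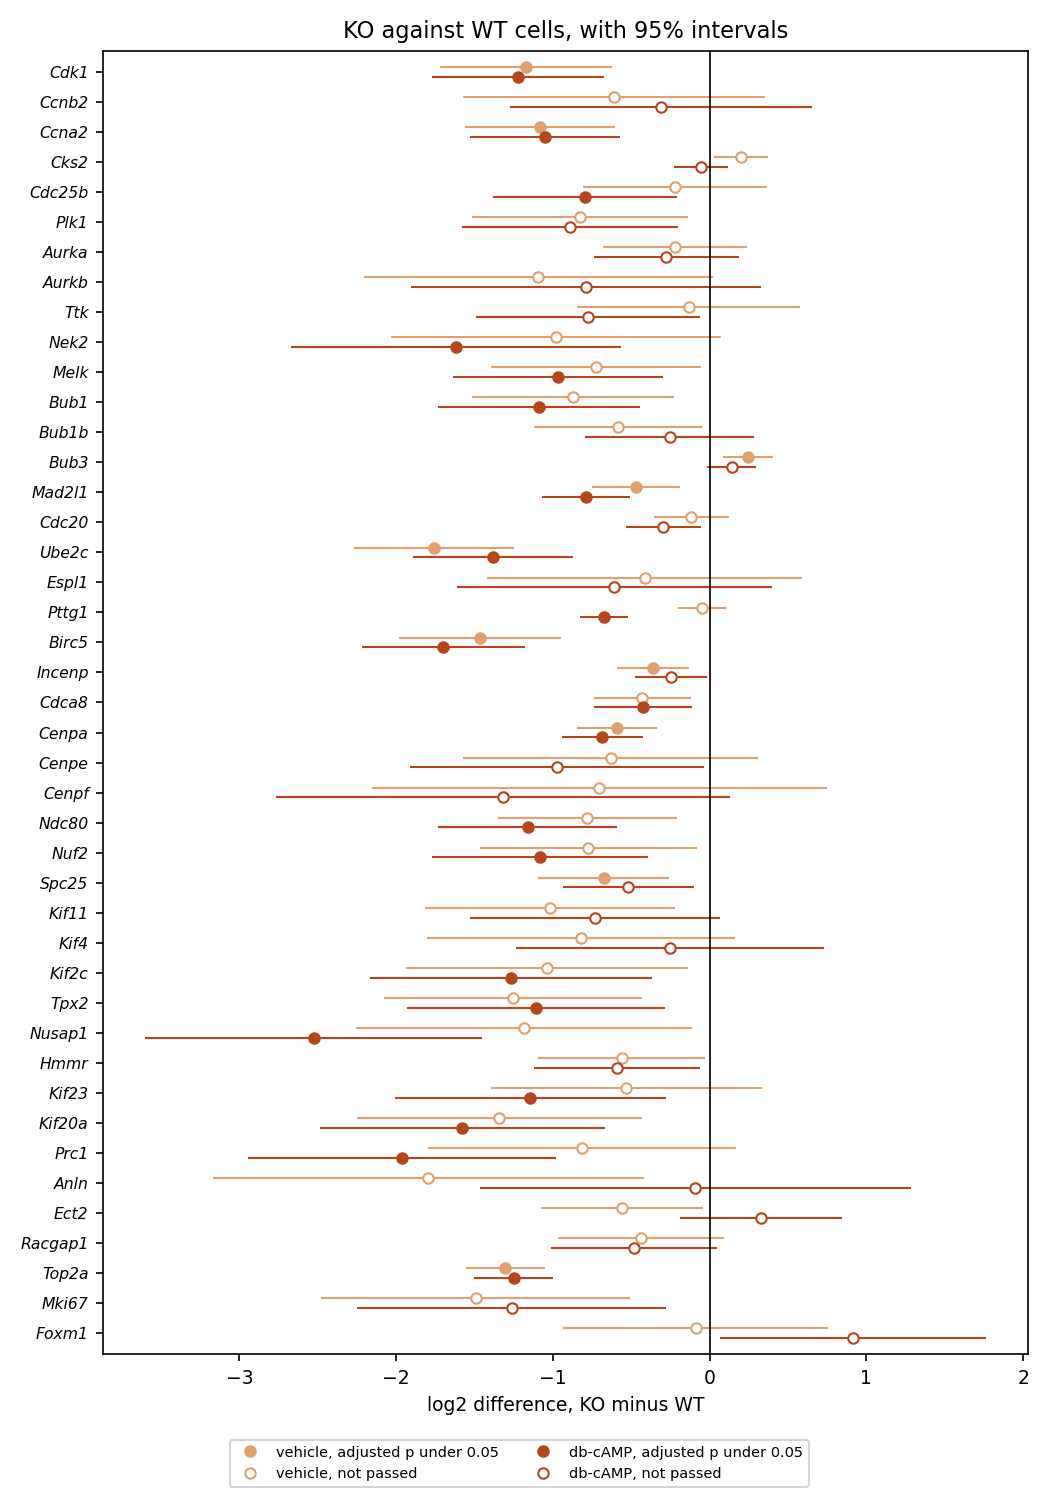
Log2 difference, KO minus WT (horizontal axis), with its 95% interval for each of the 43 genes tested, under vehicle (light) and db-cAMP (dark); filled points passed an adjusted p of 0.05. Under vehicle 41 of 43 points lie below 0 and 10 are filled, and under db-cAMP 40 of 43 lie below 0 and 21 are filled.

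Each genotype comparison depended on single arrays for part of its calls. Under vehicle the count of 10 became 6 without WT vehicle replicate 1, 5 without WT vehicle replicate 2, 6 without KO vehicle replicate 1, 4 without KO vehicle replicate 2 and 6 without KO db-cAMP replicate 1. Ube2c, Birc5 and Top2a passed in all 8 omissions. The highest adjusted p among omissions was 0.0608 for Ccna2, 0.102 for Cdk1 and 0.183 for Spc25 (all without KO vehicle replicate 2), 0.0664 for Cenpa and 0.261 for Incenp (without KO vehicle replicate 1), and 0.291 for Mad2l1 (without WT vehicle replicate 2). Under db-cAMP the count of 21 became 11 without WT db-cAMP replicate 2 and 13 without KO db-cAMP replicate 2. The 10 genes that passed in all 8 omissions were Cdk1, Ccna2, Mad2l1, Ube2c, Pttg1, Birc5, Cenpa, Nusap1, Prc1 and Top2a.

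For the other 11 genes called under db-cAMP, the least favourable omission was as follows. Without WT db-cAMP replicate 2 the adjusted p was 0.0638 for Ndc80 and 0.271 for Cdca8, and without WT db-cAMP replicate 1 it was 0.349 for Cdc25b. Without KO db-cAMP replicate 1 it was 0.138 for Nek2, 0.153 for Melk, 0.27 for Tpx2 and 0.218 for Kif23. Without KO db-cAMP replicate 2 it was 0.123 for Bub1, 0.121 for Nuf2, 0.328 for Kif2c and 0.0738 for Kif20a.

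Where a called gene had further probe sets, these mostly gave the same sign. Under vehicle 6 of the called genes had 10 other probe sets above the filter, of which 8 had the same sign and 1 passed by itself. Under db-cAMP 9 genes had 14 others, of which 11 had the same sign and 2 passed. In neither comparison did another probe set pass in the opposite direction, 0 of 10 and 0 of 14. Over the whole list, with genes not called included, 21 of 34 other probe sets were below 0 under vehicle and 26 of 34 under db-cAMP. On the probe sets used, 41 and 40 of the 43 genes were below 0, against 50.7% and 50.4% of all genes. The decrease across the list under vehicle was thus much less uniform on the other probe sets.

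In WT cells, db-cAMP raised 5 of the 43 genes and lowered 0, a share of 11.6% against 35% of all genes tested, of which 16.4% rose and 18.6% fell. The 5 were Ndc80, Cdc25b, Pttg1, Cenpa and Cks2. In KO cells Ndc80 alone rose and 0 fell, 2.33% against 8.38% of all genes (4.7% rising and 3.68% falling). The median change of the list was 0.01 in WT and 0.05 in KO cells, beside 0.01 and -0.00 for all genes. Fitted changes were above 0 for 22 of the 43 genes in WT cells (50.9% of all genes) and below 0 for 20 in KO cells (50.5%).

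The promoter windows of the 4 rising genes not yet shown follow, since cAMP acts through CREB at the CRE (TGACGTCA). Capitals mark CHR, CCAAT and full CRE matches as above, where they lie wholly inside the window shown. The CHR match of Ndc80 (TTCAAA, positions 30 to 35 from the start) runs past the end of its window and is not in capitals. RefSeq places Ndc80 at chr17:71526828-71526977 and Pttg1 at chr11:43425952-43426101, both on the minus strand, Cdc25b at chr2:131186828-131186977 and Cks2 at chr13:51645112-51645261, both on the plus strand. The Pttg1 and Cdc25b starts used in the table lie 1482 and 512 bases inside the outermost annotated start of the gene.
Ndc80: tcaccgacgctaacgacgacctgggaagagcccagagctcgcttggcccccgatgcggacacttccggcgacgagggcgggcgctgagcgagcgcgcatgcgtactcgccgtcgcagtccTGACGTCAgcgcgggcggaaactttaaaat
Pttg1: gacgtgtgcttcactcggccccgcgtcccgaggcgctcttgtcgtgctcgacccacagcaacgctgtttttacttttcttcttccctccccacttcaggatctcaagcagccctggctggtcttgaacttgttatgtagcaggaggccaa
Cdc25b: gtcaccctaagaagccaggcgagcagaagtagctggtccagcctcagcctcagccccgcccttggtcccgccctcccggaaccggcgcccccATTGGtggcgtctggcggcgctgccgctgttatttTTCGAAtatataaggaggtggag
Cks2: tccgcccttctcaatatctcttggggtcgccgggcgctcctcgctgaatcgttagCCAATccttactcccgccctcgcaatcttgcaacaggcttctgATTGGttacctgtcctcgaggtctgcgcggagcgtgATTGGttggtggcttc
A full CRE was found for 2 of the 37 genes with a promoter (5.41%, Ndc80 and Cenpe) and for 2.03% of all genes, and the shorter TGACG, which is part of it, for 27% and 23%. The Ndc80 match begins at the start site itself. Of these genes Ndc80 rose with db-cAMP and Cenpe did not pass, at -0.20 in WT and -0.54 in KO cells.

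Ndc80, whose product joins kinetochores to microtubules, gave 170 and 203 in vehicle-treated WT cells, 398 and 630 in db-cAMP-treated WT cells, and 124 and 90.6 rising to 237 and 206 in KO cells. The treated arrays exceeded the vehicle arrays in each genotype. It rose 2.64-fold in WT cells (1.40 ± 0.26, adjusted p = 0.000884) and 2.03-fold in KO cells (1.02 ± 0.26, adjusted p = 0.0302). The rise in KO cells was lost when KO vehicle replicate 2 was omitted (adjusted p = 0.231), and likewise for either treated KO array (0.203 for replicate 1 and 0.108 for replicate 2), which left 0 calls in KO cells, while omitting KO vehicle replicate 1 left 2. The rises did not differ detectably between genotypes, with a KO minus WT difference of -0.38 (95% interval -1.19 to 0.43). Its partners Nuf2 and Spc25 changed by 0.62 (adjusted p = 0.159) and -0.20 (adjusted p = 0.477) in WT cells and did not pass.

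Pttg1, which encodes securin, the inhibitor that holds separase until anaphase, was the gene of the list whose response to db-cAMP differed between genotypes. Its signals were 5468 and 5180 on WT arrays under vehicle, 8859 and 9037 with db-cAMP, 4955 and 5327 in KO cells with vehicle and 5643 and 5561 with db-cAMP. The WT arrays with db-cAMP stood apart, and the other 6 arrays lay between 4955 and 5643. Pttg1 rose 1.68-fold in WT cells (0.75 ± 0.07, adjusted p = 2.09e-06) and by 0.12 ± 0.07 in KO cells (adjusted p = 0.364). The interaction, the KO effect minus the WT effect, was -0.62 ± 0.10 (adjusted p = 0.00127), and Pttg1 was the 1 gene of 43 that passed it (2.33%, against 11.8% of all genes, 6.7% with a higher and 5.09% with a lower KO effect). The fitted interaction was below 0 for 27 of the 43 genes, against 49.5% of all genes. Pttg1 passed in all 8 omissions of an array, with adjusted p of at most 0.00893. Without db-cAMP the genotypes differed by -0.05 (95% interval -0.20 to 0.10), and with it Pttg1 was 1.60-fold lower in KO cells (adjusted p = 1e-05).

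A second Pttg1 probe set gave 1411 and 1510, then 2391 and 2327 in WT cells, and 1298 and 1376, then 1270 and 1396 in KO cells. Only the WT arrays with db-cAMP were high here too, with a rise of 0.69 in WT cells and an interaction of -0.70 (adjusted p = 0.00659 over all probe sets). The third, at 24.6 to 141, did not pass. Averaging the 3 gave an interaction of -0.71 (adjusted p = 0.138), and a fit without the intensity trend gave an adjusted p of 0.0676. The probe set used ends in _s_at, which marks probes shared by several transcripts.

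Cdc25b rose 1.75-fold in WT cells (0.80 ± 0.27, adjusted p = 0.0342), on arrays of 461 and 258 against 204 and 186. The adjusted p was 0.319 without WT db-cAMP replicate 1, 0.124 without WT vehicle replicate 2 and 0.0764 without WT vehicle replicate 1. Cenpa rose 1.33-fold (adjusted p = 0.0142), with 0.0873 when WT vehicle replicate 1 was omitted and 0.0714 when the second treated WT array was. Cks2 rose 1.24-fold (adjusted p = 0.00811), from 7389 and 7143 to 9654 and 8383, with 0.0887 when the first treated WT array was omitted and 0.0518 when WT vehicle replicate 2 was. Altogether 3 calls were left in WT cells without WT vehicle replicate 1 and 3 without WT db-cAMP replicate 1. In KO cells the changes of Cdc25b, Cenpa and Cks2 were 0.23, 0.32 and 0.05 (adjusted p = 0.729, 0.129 and 0.809), and the difference between genotypes did not pass for them (adjusted p = 0.412, 0.797 and 0.184).

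On the probe sets used, the remaining genes showed no passing response to db-cAMP, and their intervals set how large it could have been. Cdk1 had values of -0.54 (95% interval -1.09 to 0.01) in WT and -0.59 (-1.14 to -0.04) in KO cells, with adjusted p of 0.12 and 0.2. Top2a had narrow intervals around 0, -0.27 to 0.23 and -0.22 to 0.28. Kif23 and Prc1 had WT differences of 0.96 and 1.03 (adjusted p = 0.0824 and 0.0985), on arrays that did not overlap. The Foxm1 difference was -0.75 among WT arrays and 0.25 among KO arrays (adjusted p = 0.166 and 0.807), while its dimmer probe set fell by 2.20 on the log2 scale in WT cells (adjusted p = 0.0137 over all probe sets). Across the list 13 genes had both WT arrays with db-cAMP above both vehicle arrays, with 32.2% of all genes doing so, and 11 had both below, with 30.9% of all genes. In KO cells 9 genes were above without overlap (26% of all genes) and 8 below (26.2%).

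**Figure D5:**
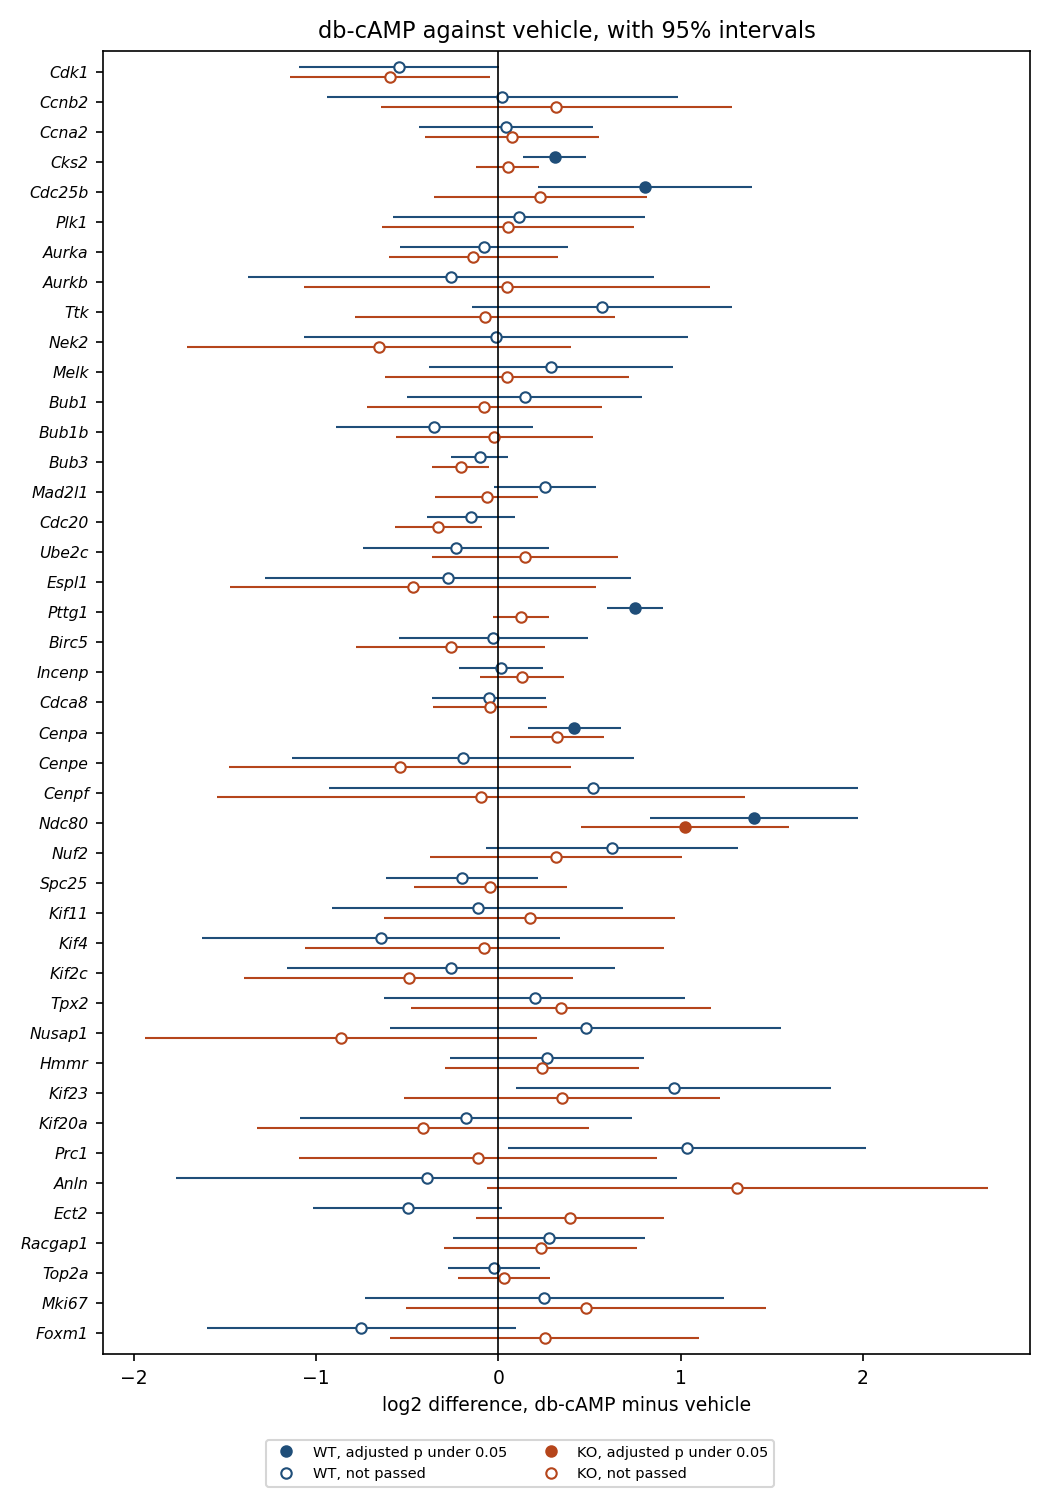
Log2 difference, db-cAMP minus vehicle (horizontal axis), with its 95% interval for each of the 43 genes tested, in WT (blue) and KO cells (orange); filled points passed an adjusted p of 0.05. The 5 filled blue points lie between 0.31 (Cks2) and 1.40 (Ndc80), and the filled orange point is Ndc80 at 1.02.

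The genotype comparisons under vehicle and under db-cAMP use different arrays, but each shares its arrays with a db-cAMP comparison, so the values of a gene in these comparisons are not independent. For the 7 genes lower in KO cells under both treatments, the interaction ran from -0.32 (Mad2l1, 95% interval -0.72 to 0.08) to 0.38 (Ube2c, -0.34 to 1.10), and none of the 7 passed. Nusap1 and Prc1, called under db-cAMP and not under vehicle, had interactions of -1.34 (adjusted p = 0.273) and -1.15 (adjusted p = 0.311), so a difference between treatments was not shown for them.

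Related gene lists that share no gene with the 45 place these values in the wider cycle. S phase genes, which copy DNA before G2, were lower in KO cells for 14 of 27 under vehicle and 14 of 27 under db-cAMP, with 0 and 1 higher. These lower calls made 51.9% of the list each time, against 5.78% and 13.3% of all genes. Their medians were -0.39 and -0.33, and 16 of 27 (59.3%) had all KO arrays below all WT arrays, against 8.12% of all genes. Examples, chosen after their values were seen, are Rrm2, a subunit of ribonucleotide reductase (-1.10 under vehicle, adjusted p = 4.76e-05), and Ccne2, cyclin E2 (-1.14, adjusted p = 0.0239). Further kinetochore genes were lower in KO cells for 4 of 29 (13.8%) under vehicle and 6 of 29 (20.7%) under db-cAMP. Spindle and centrosome genes were lower for 3 of 28 (10.7%) and 6 of 28 (21.4%), and neither list had a higher call in these comparisons. These shares stand nearer to the 5.78% and 13.3% of all genes than those of the S phase list. All KO arrays lay below all WT arrays for 20.7% of the kinetochore list and 32.1% of the spindle list, against 8.12% of all genes. The median difference was -0.23 under vehicle and -0.48 under db-cAMP for the kinetochore list, and -0.27 and -0.41 for the spindle list. Of 17 genes of the anaphase-promoting complex, 1 was lower under vehicle and 3 were lower (17.6%) and 3 higher (17.6%) under db-cAMP, where 13.3% of all genes were lower and 15.9% higher. Ube2s, which extends its ubiquitin chains and was chosen after its values were seen, was lower by 1.36-fold and 1.79-fold.

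Condensin and cohesin genes moved in both directions between genotypes, 4 higher and 4 lower of 21 under vehicle (19% each, against 5.06% and 5.78% of all genes) and 5 higher (23.8%) and 8 lower (38.1%) under db-cAMP, against 15.9% and 13.3%. Smc4, a condensin core subunit, was 2.39-fold higher in KO cells under vehicle (adjusted p = 1.6e-07) and Nipbl, the cohesin loader, 4.40-fold higher (adjusted p = 2.27e-06). In the other direction, Ncapg was 2.33-fold lower in KO cells under vehicle (adjusted p = 0.0483). These genes were chosen after their values were seen. With db-cAMP, Rad21, Stag2, Smc4 and Ncaph2 rose in WT cells by 0.39 to 0.65, among 5 of 21 (23.8%) that rose, where 16.4% of all genes rose. MuvB, DREAM and E2F regulators, of which 1 of 19 was lower in KO cells under vehicle, had 4 higher (21.1%) and 5 lower (26.3%) under db-cAMP, against 15.9% and 13.3% of all genes.

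Regulators of mitotic entry fell with db-cAMP in WT cells for 6 of 16 (37.5%) and rose for 2 (12.5%), against 18.6% and 16.4% of all genes. Wee1, the kinase that restrains Cdk1, fell 2.27-fold (-1.18 ± 0.15, adjusted p = 2.89e-05), and Bora, which helps Aurora A activate Plk1, fell 2.19-fold (-1.13 ± 0.21, adjusted p = 0.000682). Cdc14a and Ccnh fell by 0.78 and 0.73. In KO cells 0 of 16 passed in limma, with 4 at an unadjusted p under 0.05. Cell cycle inhibitors and p53 targets rose for 9 of 16 (56.2%) in WT cells and fell for 1, and rose for 6 of 16 (37.5%) in KO cells, against 16.4% and 4.7% of all genes rising. Cdkn1b, the inhibitor p27, rose 3.81-fold in WT and 1.78-fold in KO cells (adjusted p = 7.22e-08 and 0.000984). Ccng2, cyclin G2, rose 3.26-fold and 2.19-fold (adjusted p = 4.09e-08 and 1.91e-05), and Gadd45a rose 2.87-fold in WT cells. E2F regulators that fell in WT cells included E2f5, E2f3 and E2f6, by 1.04 to 1.22 on the log2 scale, while Tfdp2 rose by 1.25, and in all 6 of 19 rose (31.6%, against 16.4% of all genes) and 4 fell (21.1%, against 18.6%).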

How the data were processed

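RNA of 8 samples was measured on Affymetrix arrays from biotin-labelled cRNA, per the labels' protocols. The authors deposited linear signal intensity per probe set, made with MAS5, per the submitters' processing notes, whose version is not given in the sources used. Each deposited column had a trimmed mean of 500, so arrays had been scaled and total mRNA per cell is not measured. Precision is limited by the number of arrays. Replicate arrays correlated at 0.961 to 0.977 across genes, which are not independent, and held at most 1 identical value.

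Of 45101 probe sets, 34945 have a single gene symbol in the platform annotation, and each gene is represented by the probe set whose mean on the log2 scale below was highest, which need not have the highest mean signal. Values were taken as log2(intensity + 5.48), the offset being the 10th percentile. Genes above the array median on at least 2 arrays were tested (12091 of 18193). The fit was limma 3.58.1 in R 4.3.3 (lmFit, eBayes with an intensity trend), with 1 term per group, 4 residual degrees of freedom (prior median 9), and Benjamini-Hochberg adjustment over all genes in each of 5 comparisons. Every adjusted p is limma's. The fit was tested on simulated data.

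Array values are given for passing genes (up to 12 in each db-cAMP comparison, 8 in the others) and for 13 core genes whatever their values, and up to 4 genes are named of each other list in each db-cAMP comparison; the text gives part of these. The genes, lists and rule were chosen with earlier results of these data known. Promoters are from RefSeq (GRCm38.p6). Figures were drawn with matplotlib 3.10.9. Alternatives changed the offset, filter, scaling, trend, probe set choice, arrays in the fit and replicate block, and left out each array in turn.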

Additional observations from a re-analysis of the deposited data

Results flagged for a closer look

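The response of Pttg1 (securin) to db-cAMP differed between KO and WT cells by the test of the difference itself, with an interaction of -0.62 ± 0.10 on the log2 scale (limma adjusted p = 0.00127). It rose by 0.75 in WT cells, where both treated arrays exceeded both vehicle arrays, and by 0.12 in KO cells. Its cause was not tested.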

How the results depend on the processing

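Each result was recomputed under up to 20 alternatives. Of 38 calls on single genes, 11 passed in the same direction under all that could be run and 27 were lost under at least 1. Reversed directions were Incenp under vehicle, at 0.11 with the mean of all probe sets and 0.25 without _x_at and _s_at probe sets, Cenpa under db-cAMP at 0.21 with the mean, and Kif2c under db-cAMP at 0.27 with an offset of 50 and 0.37 without _x_at and _s_at. None of the 38 reversed under quantile or equal 75th percentile scaling. The count of genes called for db-cAMP in KO cells was 0 without the filter, without the intensity trend and with the mean of probe sets, and 2 with equal 75th percentiles. KO against WT under vehicle gave 4 calls without the trend and 5 with the mean, and the interaction 0 and 0. The median difference under vehicle was -0.48 with an offset of 50 and -0.58 for genes above the median in all 8 arrays. Under db-cAMP it was -0.65 with an offset of 50, -0.91 with equal 75th percentiles and -0.61 with the mean. The causes were not tested.

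Leaving out each array gave 3 to 5 calls for db-cAMP in WT cells (medians 0.00 to 0.06), 0 to 2 in KO cells (-0.01 to 0.09), 4 to 10 for KO against WT under vehicle (-0.74 to -0.63), 11 to 20 under db-cAMP (-0.86 to -0.74) and 1 to 1 for the interaction (-0.16 to -0.06). Equal 75th percentiles shifted the median of all genes by -0.13 for KO against WT under db-cAMP, and the 43 genes lay -0.79 from that shifted median. It moved the split of all calls from 612 higher and 699 lower to 401 and 1177 under vehicle, from 1926 and 1603 to 1370 and 2243 under db-cAMP, and from 568 and 445 to 447 and 584 for db-cAMP in KO cells. Deviations of same-numbered arrays correlated at -0.02 to 0.02, so no pairing by number was seen. This check cannot exclude a shared origin of same-numbered samples, because noise of single arrays could hide it. With the replicate block the counts were 5, 1, 8, 19 and 1 in the order above. Signal over background limits the dim genes, 23 of 43 with a mean under 200.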
